A study of Mus musculus with 12 samples.

Results

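Cluster 8 of the 12W spleen and cluster 11 of the 28W spleen, both from sorted PD-1+CD44+CD8+ T cells, had few transcripts per cell and a high mitochondrial share. They were taken by number from the deposited cluster assignments. Cluster 8 held 307 of 6894 cells of its library, a share of 4.45% (exact 95% binomial interval 3.98 to 4.97%), and cluster 11 held 215 of 6481, a share of 3.32% (2.89 to 3.78%). Together they hold 522 of the 13375 splenic cells and of the 20510 cells of the whole series. All mice were NZB/W F1, a hybrid strain that develops spontaneous lupus nephritis, and female by the study's methods. The 12W spleen came from mice aged 12 weeks and the 28W spleen from mice aged 28 weeks, and a kidney library at 28 weeks completes the series. The labels name no treatment in any of the 3 groups. Each group has 4 labelled samples whose titles differ only by a lane-style suffix, and nothing says that they are separate mice. Each table pools them with no map from cells to samples, so each age is 1 library and no test between groups or clusters could be run. Intervals cover counting error only, and age and library cannot be told apart.

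The mitochondrial genome encodes core subunits of the respiratory chain and of the ATP synthase and is transcribed inside the organelle, whereas most respiratory subunits and all cytosolic ribosomal proteins are made from nuclear genes. Some long noncoding RNAs, among them *Malat1*, *Xist* and *Kcnq1ot1*, are retained in the nucleus. *Kcnq1ot1* is transcribed antisense to *Kcnq1* and silences neighbouring imprinted genes, *Xist* coats the inactive X chromosome, and *Malat1* is abundant in nuclear speckles.

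Both clusters combined few transcripts per cell with a high mitochondrial share. Cluster 8 of the 12W spleen had 928 unique molecular identifiers (UMIs, counted transcripts) per cell. This was the lowest mean of the 10 clusters, since the other 9 ran from 2124 to 14345 with a median of 5654. Cluster 11 of the 28W spleen had 1288 UMIs per cell, the second lowest of 11 clusters, and cluster 8 of that library, which carries haemoglobin transcripts, was lower at 1020. The other 10 clusters of the 28W spleen had a median of 4402 and reached 12208. Low UMI counts per cell were thus seen in both clusters, and at 28 weeks also in cluster 8.

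The 13 protein-coding mitochondrial genes made up 8.98% of UMIs in cluster 8 (exact 95% interval 8.88 to 9.09%) and 6.64% in cluster 11 (6.55 to 6.73%). In the other clusters the share lay between 0.612 and 1.32% at 12 weeks and between 0.869 and 1.71% at 28 weeks, so neither range reached the cluster described. Counted per cell the picture was different. Cluster 8 had 83.4 mitochondrial UMIs per cell and cluster 11 had 85.5, against 58.5 and 51.7 in the remaining cells of their libraries. The other clusters spanned 27.0 to 163 mitochondrial UMIs per cell at 12 weeks and 17.5 to 111 at 28 weeks, and in each library 1 cluster lay above the one described. UMIs from nuclear genes stood at 844 and 1202 per cell, with medians of 5592 and 4362 in the other clusters.

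**Figure D1:**
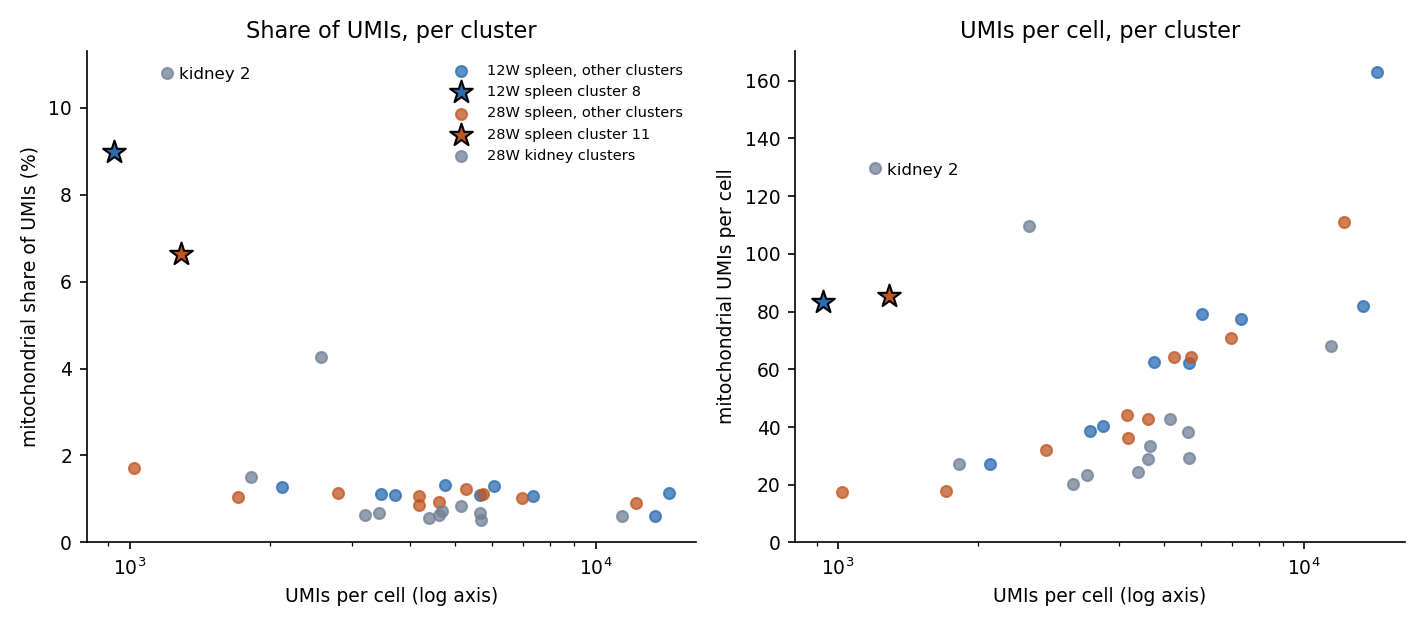
Mitochondrial share of UMIs in percent (left) and mitochondrial UMIs per cell (right) against UMIs per cell on a log axis, 1 point for each cluster of the 3 libraries; stars mark 12W spleen cluster 8 and 28W spleen cluster 11. The stars stand at 8.98 and 6.64% on the left, above every other spleen cluster, but at 83.4 and 85.5 on the right, inside the range of the other clusters.

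The mitochondrial transcripts were high in step with one another. Levels are given in CPM, the UMIs of a gene in every 1000000 UMIs of a cluster, and on this scale all 13 were at least 2-fold higher in each cluster, with a median log2 ratio of 2.95 in cluster 8 (range 2.60 to 3.04) and 2.69 in cluster 11 (2.53 to 2.88). A log2 ratio here compares the level in the cluster with the level in all other cells of its library, after adding 10 CPM to both. *mt-Co1*, a catalytic subunit of cytochrome c oxidase, took 22.3% of the mitochondrial UMIs in cluster 8 and 22.0% in the other cells. In cluster 11 it took 22.1%, against 23.2%. *mt-Nd6*, the only one of the 13 on the other strand of the mitochondrial genome, had the highest ratio of CPM to the rest, taken without the added 10 CPM, at 9.88-fold in cluster 8 (6.87 to 13.8, from 37 UMIs) and 10.7-fold in cluster 11 (7.91 to 14.3, from 52 UMIs).

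The given markers of both clusters were the noncoding RNAs *Kcnq1ot1* and *Gm26917*. *Kcnq1ot1* (chr7:143203458-143296549, GRCm38, minus strand, a single annotated exon inside *Kcnq1*) stood at 555 CPM in cluster 8 (exact Poisson interval 472 to 648, from 158 UMIs). The other 9 clusters ranged from 11.1 to 32.7 CPM with a median of 17.8. In cluster 11 it stood at 253 CPM (197 to 319, from 70 UMIs), and the other 10 clusters ranged from 11.04 to 31.6 CPM with a median of 19.8. The levels of the other clusters do not reach those of the clusters described in either library. Against all other cells the ratio was 24.6-fold (20.6 to 29.3) and 11.7-fold (9.04 to 15.02). Cluster 8 held 16.9% of all *Kcnq1ot1* UMIs of its library with 0.820% of all UMIs, and cluster 11 held 9.28% with 0.865%. Reads of *Kcnq1ot1* and *Kcnq1* would be told apart by strand alone, and the strand setting of the count is not given in the sources used here.

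*Gm26917* (chr17:39843013-39846341, GRCm38, plus strand, a single-exon lincRNA) reached 3167 CPM in cluster 8 (2963 to 3380), with 167 to 464 CPM in the other clusters. In cluster 11 it reached 2203 CPM (2032 to 2385), with 126 to 319 CPM elsewhere. It lies beside *Gm42418* and *AY036118*, 2 overlapping annotations on opposite strands in the same stretch of chr17, which resembles the ribosomal RNA precursor. In CPM these neighbours were not raised in cluster 8, and in cluster 11 they were raised less than *Gm26917*. *Gm42418* was at 10823 CPM in cluster 8, inside the range of 7516 to 42645 CPM of the other clusters, and the ratio to the rest was 0.744 (0.718 to 0.771). In cluster 11 *Gm42418* was at 27303 CPM, 1.74-fold the rest (1.70 to 1.78), and below the 60212 CPM of cluster 8 of that library. *AY036118* was within counting error of the rest in cluster 8 (ratio 1.04, 0.918 to 1.17) and 2.202-fold higher in cluster 11 (2.04 to 2.38). Per cell neither was raised in cluster 11. *Gm42418* had 35.2 UMIs per cell there, below the 37.6 to 123 of the other clusters. *AY036118* had 3.06, with 1.84 to 9.56 in the other clusters and a median of 5.20.

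*Malat1* was at 18143 CPM in cluster 8 and 17888 CPM in cluster 11, while the other clusters lay between 845 and 4840 CPM and between 1362 and 5023 CPM. *Xist* was at 2788 and 1994 CPM, with 233 to 595 CPM and 195 to 565 CPM in the other clusters. Both genes were thus outside the range of every other spleen cluster. Per cell the gap was small and 2 other clusters of each library held more *Malat1*. Cluster 8 had 16.8 *Malat1* UMIs per cell against 14.04 in the rest and 2.59 *Xist* UMIs against 2.07. Cluster 11 had 23.0 against 15.3 for *Malat1* and 2.57 against 2.02 for *Xist*. *Neat1*, the RNA scaffold of paraspeckles, was 3.82-fold higher in CPM in cluster 8 (2.65 to 5.34, from 35 UMIs) and 4.79-fold higher in cluster 11 (3.64 to 6.19, from 61 UMIs). Long noncoding genes other than those 3 of chr17 made up 3.07% of UMIs in cluster 8 (3.003 to 3.13%) and 2.88% in cluster 11 (2.82 to 2.94%), compared with 0.835 and 0.920% in the remaining cells.

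**Figure D2:**
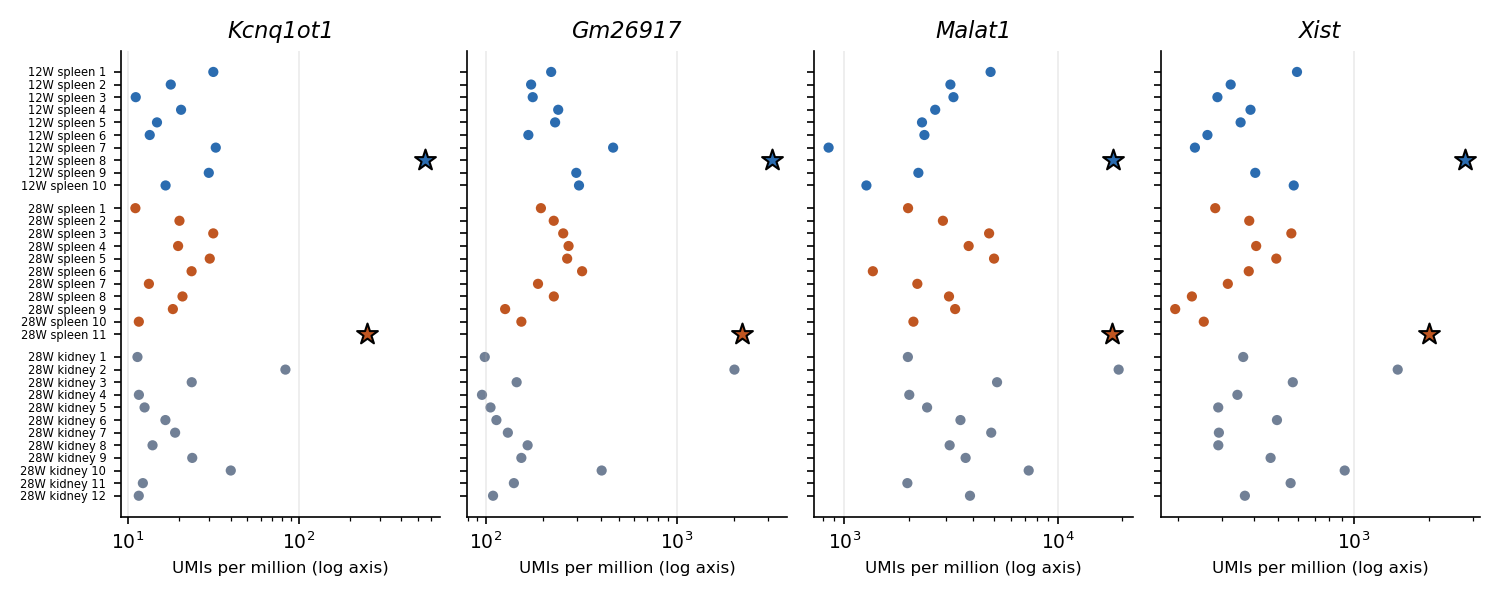
Level of *Kcnq1ot1*, *Gm26917*, *Malat1* and *Xist* in CPM on a log axis, 1 point for each of the 33 clusters of the 3 libraries, named by library and number; stars mark 12W spleen cluster 8 and 28W spleen cluster 11. In all 4 panels both stars lie to the right of every other spleen cluster, and kidney cluster 2 is the highest kidney point.

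The difference from the rest ran through many expressed genes. Of 3670 genes with a mean level of at least 50 CPM in cluster 8 and the rest of its library, 1626 (44.3%) were at least 2-fold higher in cluster 8 and 649 (17.7%) at least 2-fold lower. Of 3280 genes in cluster 11, 1181 (36.0%) were at least 2-fold higher and 430 (13.1%) at least 2-fold lower. These shares are the background for every list below. The median log2 ratio over all these genes was 0.76 in cluster 8 and 0.54 in cluster 11, and a list is read against those medians. With the levels scaled so that the median gene did not differ, 887 genes were higher and 1007 lower in cluster 8, and 637 and 724 in cluster 11. A cluster set against the cells it was separated from is not a test, because the same genes drew the boundary.

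The direction in CPM is not the direction per cell. Cells outside cluster 8 held 5.64 times as many UMIs per cell, and cells outside cluster 11 held 3.93 times as many. Counted as UMIs per cell, 16 genes were at least 2-fold higher and 2129 lower in cluster 8, and 15 were higher and 1759 lower in cluster 11. Of the higher genes 7 were shared, *Kcnq1ot1*, *Gm26917*, *Tmem131l*, *Lrig1*, *Fosb*, *Arl5b* and *Lmtk2*, which were named after their values were seen. *Kcnq1ot1* stood at 0.515 UMIs per cell in cluster 8 against 0.118 in the rest, and at 0.326 against 0.109 in cluster 11. Its per-cell level was also the highest of all clusters in both libraries, the next being 0.438 and 0.288. *Gm26917* was not the highest per cell. It stood at 2.94 UMIs in cluster 8 and 2.84 in cluster 11, and the highest other clusters held 6.22 and 3.90. Less RNA per cell and a lower rate of capture cannot be told apart.

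Both clusters shared most of their pattern. Of 3075 genes above the level filter in both libraries, 1042 were at least 2-fold higher in both, which is 82.5% of those higher in cluster 8 and 94.5% of those higher in cluster 11. A further 390 were at least 2-fold lower in both, 62.2% of those lower in cluster 8 and 92.9% of those lower in cluster 11. Only 1 gene went in opposite directions past 2-fold, *Jchain*, and its direction turned with the cells it was set against, to a log2 ratio of 1.64 in cluster 8 without the erythroid-marked cluster 3 and to -0.065 in cluster 11 with the other clusters weighted equally. Pearson's r of the log2 ratios across these genes was 0.95, and 0.94 across the 2982 genes that are neither mitochondrial nor ribosomal. Genes are not independent replicates, and they share the level filter and the same low depth, so r is given as a description. The ratios of cluster 11 were smaller, with a median size of 0.99 on the log2 scale against 1.29 in cluster 8. No cell barcode occurred in both clusters. Of the barcodes of cluster 8, 4 also occurred in the kidney library, and of those of cluster 11, 2 occurred in the 12W spleen and 2 in the kidney. The whole libraries shared few barcodes as well. The 2 spleens shared 52, the 12W spleen and the kidney 56, and the 28W spleen and the kidney 66. With so few shared in all, these overlaps say nothing particular about the 2 clusters.

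**Figure D3:**
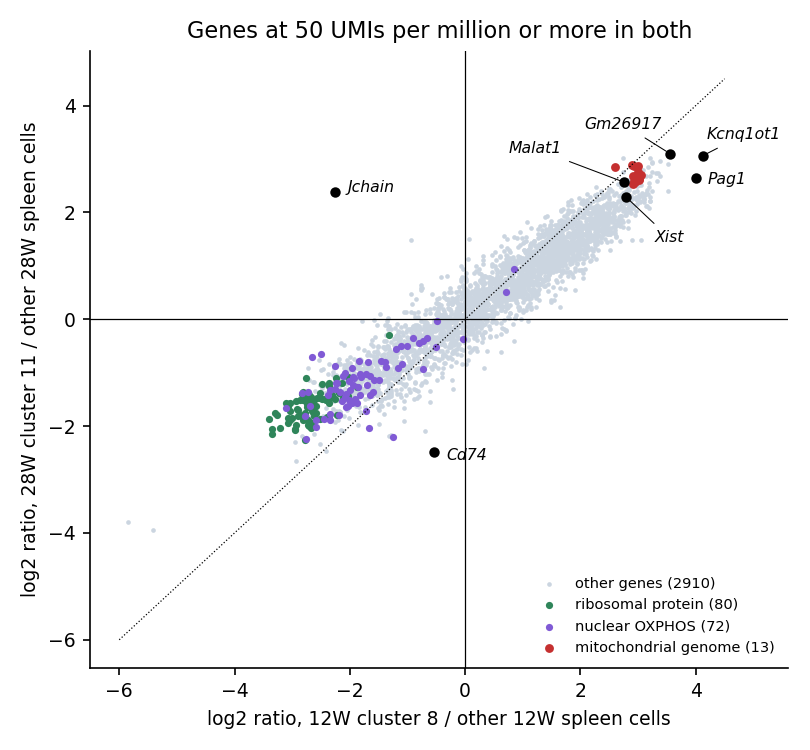
Log2 ratio in 12W spleen cluster 8 (x axis) and in 28W spleen cluster 11 (y axis), each against the other cells of its library, for the 3075 genes at 50 CPM or more in both; colours mark gene families and the dotted line marks equal ratios. Mitochondrial genes and the labelled noncoding RNAs lie at the upper right, ribosomal protein genes at the lower left, and *Jchain* stands apart at -2.26 and 2.38.

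Among the 12 highest ratios of cluster 8 were genes of signalling and of RNA or protein handling. *Kcnq1ot1* led with a log2 ratio of 4.12. *Pag1*, an adaptor that anchors the kinase Csk near the T cell receptor, followed with a ratio of 21.9-fold, 551 CPM against 9.83 to 37.2 CPM in the other clusters. *Gm26917* (3.55), *Tmem131l* (3.51), *Zufsp* (3.51), *Tmem245* (3.43), *A430078G23Rik* (3.38) and *Lrig1*, a negative regulator of growth factor receptors (3.37), came next. *Ptprc*, which encodes the pan-leukocyte phosphatase CD45, had a log2 ratio of 3.35 and the largest count of the 12, 5301 CPM from 1510 UMIs against 371 to 713 CPM in the other clusters. *Nufip2* (3.32), *Apc*, the scaffold that restrains beta-catenin (3.32), and *Arl5b* (3.25) completed the 12. All 12 were higher in cluster 8 than in each of the other 9 clusters.

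The 12 highest of cluster 11 overlapped with these in *Gm26917* (3.10), *Kcnq1ot1* (3.06), *Lrig1* (2.96), *Arl5b* (2.93) and *Tmem131l* (2.91). The others were *Cenpf* (3.02) and *Mki67* (2.80), both long transcripts of dividing cells, *Cd69* (3.02), an early activation and retention receptor, *Fosb* (2.93), *Tnfaip3*, the NF-kB inhibitor A20 (2.85), *Gm47015* (2.85) and *Gxylt1* (2.76). *Cd69* stood at 1730 CPM from 479 UMIs, and the other clusters lay between 54.9 and 315 CPM. In cluster 8 *Cd69* was at 1359 CPM, again above the 94.9 to 199 CPM of the other clusters.

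The lowest ratios had different sources. In cluster 8 *Hba-a1* (2 UMIs), *Hbb-bs* (5) and *Hbb-bt* (4), all haemoglobin chains, had log2 ratios of -5.84, -5.42 and -3.65, but the rest of that library includes cluster 3, where *Hbb-bs* was at 17754 CPM. Without that cluster the 3 ratios were 0.16, 0.84 and 1.14. The others included *Atp5e* (-3.12), *Tpt1* (-3.12), *Btf3* (-2.96), *Gstp1* (-2.93), *Txn2* (-2.85), *Uqcr11* (-2.83), *Naa38* (-2.82, from 2 UMIs) and *Hspe1* (-2.81). Among them *Atp5e* and *Uqcr11* encode small respiratory subunits, *Txn2* a mitochondrial thioredoxin and *Hspe1* a mitochondrial co-chaperonin. All 8 named here were lower in cluster 8 than in each of the 9 other clusters. In cluster 11 the lowest were *Hbb-bs* (-3.94, from 2 UMIs), *Hba-a1* (-3.79, from 1 UMI), the class II genes *H2-Aa* (-2.97, from 2 UMIs) and *Cd74* (-2.48), *Gstp1* (-2.65), *Dapl1* (-2.47), *Banf1* (-2.33), *Btf3* (-2.29), *Ndufc1* (-2.25), *Ndufb2* (-2.20), *Naa38* (-2.19) and *Cenpx* (-2.18). The rest there includes clusters 8 and 10, marked by erythroid and B cell genes, and without them *Hbb-bs* was at 0.04 and *Cd74* at 0.91.

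Cytosolic ribosomal protein genes were low as a family. All 82 genes above the level filter were at least 2-fold lower in cluster 8, with a median log2 ratio of -2.70, and 79 of 80 were in cluster 11, with a median of -1.62. The family took 4.81% of UMIs in cluster 8 and 10.7% in cluster 11, while the other clusters lay between 25.3 and 40.2% and between 23.7 and 40.9%. *Rpl32* was at 516 CPM in cluster 8 against 3514 to 7209 CPM in the other clusters. *Rpl15* was at 610 CPM in cluster 11 against 1824 to 3565 CPM. *Rps15* was the member of cluster 11 that stayed within 2-fold, at a log2 ratio of -0.29, and in cluster 8 it was at -1.32. Per cell, cluster 8 held 44.6 ribosomal protein UMIs and cluster 11 held 138, and the lowest other clusters held 537 and 242.

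Nuclear genes for respiratory chain subunits went the other way from the mitochondrial ones. In cluster 8, 63 of 74 were at least 2-fold lower and none higher, with a median log2 ratio of -1.90. In cluster 11, 48 of 72 were lower and none higher, with a median of -1.19. *Cox7b*, a small subunit of cytochrome c oxidase, was at 38.6 CPM in cluster 8 against 228 to 534 CPM in the other clusters, and *Cox7c* was at 170 CPM in cluster 11 against 545 to 1018 CPM. *Sdha* and *Ndufs1*, which encode large subunits of complexes II and I, were the top members in both clusters, with log2 ratios of 0.70 and 0.84 in cluster 8 and 0.51 and 0.94 in cluster 11. Abundant cytoplasmic transcripts followed the ribosomal genes, with 22 of 23 lower in cluster 8 (median -2.22) and 19 of 23 in cluster 11 (median -1.34). *Eef1a1*, a translation elongation factor, was 5.53-fold lower in cluster 8 and 3.502-fold lower in cluster 11. *Tmsb4x*, an actin-binding peptide, was 6.75-fold and 3.504-fold lower. *B2m*, the light chain of class I molecules, was 1.62-fold and 1.21-fold lower, inside 2-fold in both.

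Genes with long transcripts were high as a group in CPM. Of 25 genes for chromatin regulators and other giant proteins above the filter, 22 were at least 2-fold higher in cluster 8 and none lower, with a median log2 ratio of 2.11 in CPM and -0.14 per cell. In cluster 11 all 24 were higher, with a median of 1.91. *Macf1*, a spectraplakin linking actin to microtubules, was at 1408 CPM in cluster 8 against 58.0 to 247 CPM in the other clusters, and at 863 CPM in cluster 11 against 78.2 to 228 CPM. *Utrn*, which encodes utrophin, reached 1232 and 823 CPM, and the chromatin remodeller *Chd2* reached 449 and 350 CPM. Per cell the differences were smaller, with 1.31 *Macf1* UMIs against 0.763 in cluster 8 and 1.11 against 0.706 in cluster 11. Among splicing genes and genes with introns that are retained in nuclear transcripts, 18 of 24 were higher in cluster 8 (median 1.80 in CPM, -0.49 per cell) and 16 of 24 in cluster 11 (median 1.32 in CPM, -0.56 per cell), with none lower in CPM. *Ogt* (2.97 and 2.03), *Luc7l2* (2.71 and 1.94) and the kinase *Clk1* (2.50 and 2.07) had the highest ratios of the list in cluster 8. *Hnrnpu* (0.11 and -0.07) and *Srsf6* (0.08 and -0.26) stood near the rest.

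The ratio followed the annotated length of a gene. Of genes outside the mitochondrial and ribosomal families, those whose longest transcript is up to 1 kb had a median log2 ratio of -1.52 in cluster 8 (230 genes), and the median was -0.62 at 1 to 2 kb, 0.25 at 2 to 3 kb, 0.78 at 3 to 4 kb, 1.44 at 4 to 6 kb and 1.96 above 6 kb (655 genes). In cluster 11 the same bins gave -0.997 (233 genes), -0.42, 0.16, 0.63, 1.08 and 1.57 (553 genes). Spearman's rho between the log2 ratio and transcript length was 0.68 across 3575 genes in cluster 8 and 0.66 across 3187 in cluster 11. The same correlation in the other clusters ran from -0.24 to 0.45 at 12 weeks and from -0.22 to 0.48 at 28 weeks in the spleen, and from -0.30 to 0.61 in the kidney, where cluster 2 was highest and cluster 10 followed at 0.54. These are descriptions across genes that share 1 library and 1 level filter.

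Length along the genome, introns included, went with the ratio as well. Genes spanning up to 5 kb had a median log2 ratio of -0.85 in cluster 8 and -0.50 in cluster 11, and genes spanning over 200 kb had 2.25 and 1.80. Transcript length and genomic span each went with the ratio within bins of the other. Among transcripts over 4 kb in cluster 8 the median was 0.35 for genes spanning up to 10 kb (59 genes), 1.22 from 10 to 50 kb (582) and 1.97 beyond (833). Among transcripts up to 2 kb it was -1.09, -0.59 and 0.03. In cluster 11 the values were 0.23, 1.02 and 1.56 above 4 kb and -0.71, -0.54 and -0.29 up to 2 kb. The tables do not separate intronic from exonic reads, so the part of unspliced RNA in these ratios was not tested.

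**Figure D4:**
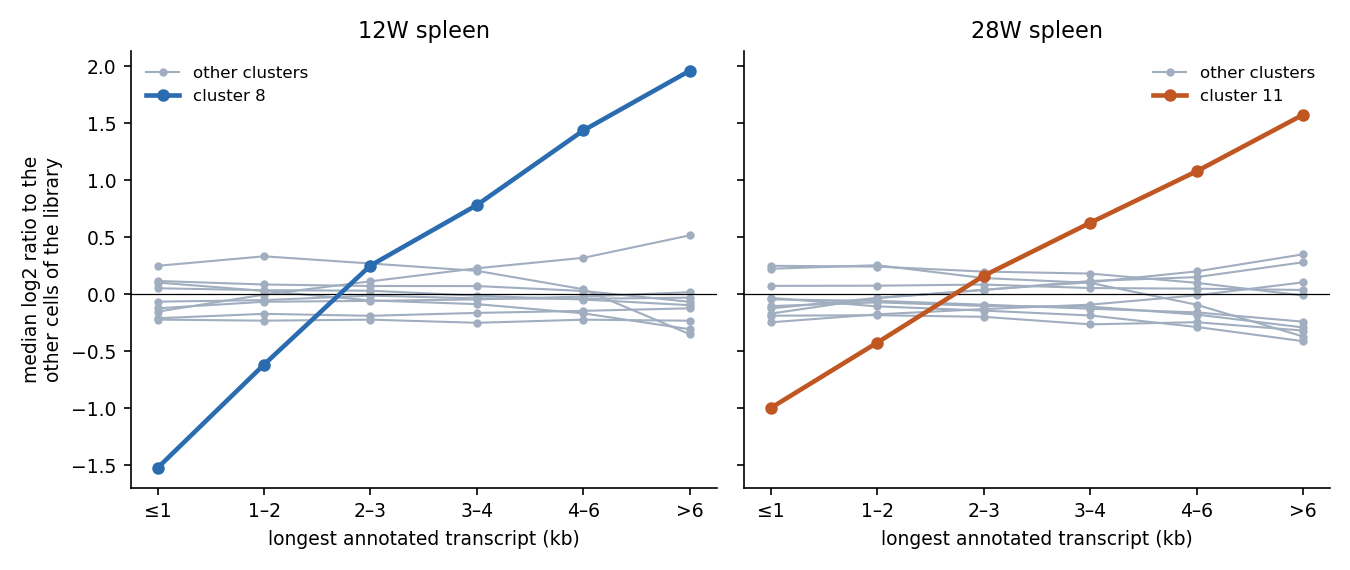
Median log2 ratio to the other cells of the library (y axis) for genes binned by their longest annotated transcript in kb (x axis), in the 12W spleen (left) and the 28W spleen (right); the coloured line is the cluster described and grey lines are the other clusters. The coloured lines run from -1.52 to 1.96 and from -0.997 to 1.57, and the grey lines cover a smaller range.

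The T cell label of the sort was checked next. T cell genes were present at levels close to the rest in CPM. *Cd3e*, a signalling chain of the T cell receptor complex, was at 1443 CPM in cluster 8 and 1390 CPM in cluster 11, with 1105 and 1044 CPM in the rest. *Cd8a* was at 807 and 722 CPM (589 and 486 in the rest) and *Cd8b1* at 1039 and 1315 CPM (871 and 1013). Of 17 T cell identity genes 2 were at least 2-fold higher in each cluster, *Ptprc* and *Cd5*, and none was lower. The list median was 0.30 in cluster 8 and 0.41 in cluster 11, below the medians of 0.76 and 0.54 over all genes. Per cell the 17 genes summed to 14.6 UMIs in cluster 8 against 50.6 in the rest, and to 18.4 against 46.4 in cluster 11. *Lck*, the kinase that starts receptor signalling, had log2 ratios of 0.07 and 0.32, *Thy1* 0.31 and 0.36, and *Trac* -0.06 and 0.78. Transcripts of the sorted proteins *Pdcd1* (19 and 17 UMIs) and *Cd44* (35 and 41 UMIs) were sparse, with log2 ratios of 0.73 and 0.68 for *Pdcd1* and 1.71 and 1.46 for *Cd44*. *Cd4* had 0 UMIs in cluster 8, which allows up to 10.5 CPM, and 1 UMI in cluster 11. The 4 genes of the CD4 T cell list together gave 1 UMI in cluster 8 and 11 in cluster 11. In cluster 11 that was 39.7 CPM against 15.4 in the rest, 2.57-fold (1.28 to 4.65), and up to 36.1 CPM in single other clusters. Per cell it was 0.0512 UMIs against 0.0782. No gene of that list was above the level filter.

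Programs of CD8+ T cells varied gene by gene, and the values below compare CPM. In the memory list 3 of 5 genes were at least 2-fold higher in cluster 8 (median log2 ratio 1.11, per cell -1.30) and 4 of 5 in cluster 11 (median 1.26, per cell -0.63), with *Satb1*, a chromatin organiser of resting T cells, at 1.68 and 1.69. In the Junb and NF-kB list 4 of 5 and 3 of 5 were higher (medians 1.67 and 1.69, per cell -0.47 and -0.071), with *Tnfaip3* at 3.16 and 2.85 and *Rel* at 2.85 and 2.43, while the short transcript *Nfkbia* was at 0.08 and 0.62. Of the immediate-early genes 7 of 10 and 4 of 10 were higher (medians 1.29 and 0.85, per cell -1.02 in cluster 8), and *Jun* was at 2.69 and 1.46. In cluster 11 the immediate-early list also fell per cell, with 9.03 UMIs against 18.5 in the rest. *Itgb1*, the CD29 chain, was higher in both (2.40 and 1.90), and *S100a10* of the same list was lower in both (-2.09 and -1.12). *Ctla4* was at 2.14 and 1.77. *Ikzf2*, which encodes Helios, was at 797 CPM in cluster 8 against 27.9 to 221 CPM elsewhere and at 339 CPM in cluster 11 against 7.66 to 135 CPM. The 6 regulatory T cell genes, *Ikzf2* among them, summed to 5.25-fold the rest in cluster 8 (4.64 to 5.93) and 4.10-fold in cluster 11 (3.45 to 4.84). Only 2 of the 6 were above the level filter in each cluster. Per cell the list was near the rest, with 0.896 UMIs against 0.962 in cluster 8 and 0.679 against 0.652 in cluster 11.

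Effector genes were not high as a group in cluster 8 and were mixed in cluster 11. In the cytotoxic list none of 5 genes was 2-fold higher in cluster 8, where *Ccl5*, a chemokine, was 4.27-fold lower. In cluster 11, 3 of 7 were, among them *Gzmk*, a granzyme of memory-like cells, at 444 CPM against 34.6 to 401 CPM in the other clusters. The median of the cytotoxic list there was 0.67, against 0.54 over all genes, while its summed level was 0.754-fold the rest. *Mif*, a cytokine with a short transcript, was 6.64-fold lower in cluster 8 and 3.60-fold lower in cluster 11, and *Isg15*, an interferon-induced modifier, was 3.18-fold and 3.96-fold lower. In the proliferation list 2 of 6 genes were higher in each cluster, and 2 were lower in cluster 8 and 1 in cluster 11. *Mki67* (3.08 and 2.80) and *Top2a* (1.79 and 1.56), with long transcripts, were the higher ones. *Tubb5*, a tubulin, stood at -1.79 and -1.38 and *Stmn1*, a tubulin-binding protein, at -1.47 and -0.85. Heat shock genes had 3 of 8 and 2 of 8 lower and none higher, with *Hspa8* at -1.98 and -1.09. Of the BCL2 family and caspases 1 of 6 was higher in each cluster, and the summed level was 1.14-fold the rest in cluster 8 (1.01 to 1.29) and 0.988-fold in cluster 11 (0.861 to 1.13). The higher gene was *Bcl2* in cluster 8 (1.14, and 0.19 in cluster 11). In cluster 11 it was *Bcl2l11*, the death activator Bim (1.64, and 0.96 in cluster 8). *Bax* was at -0.78 and -0.91.

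**Figure D5:**
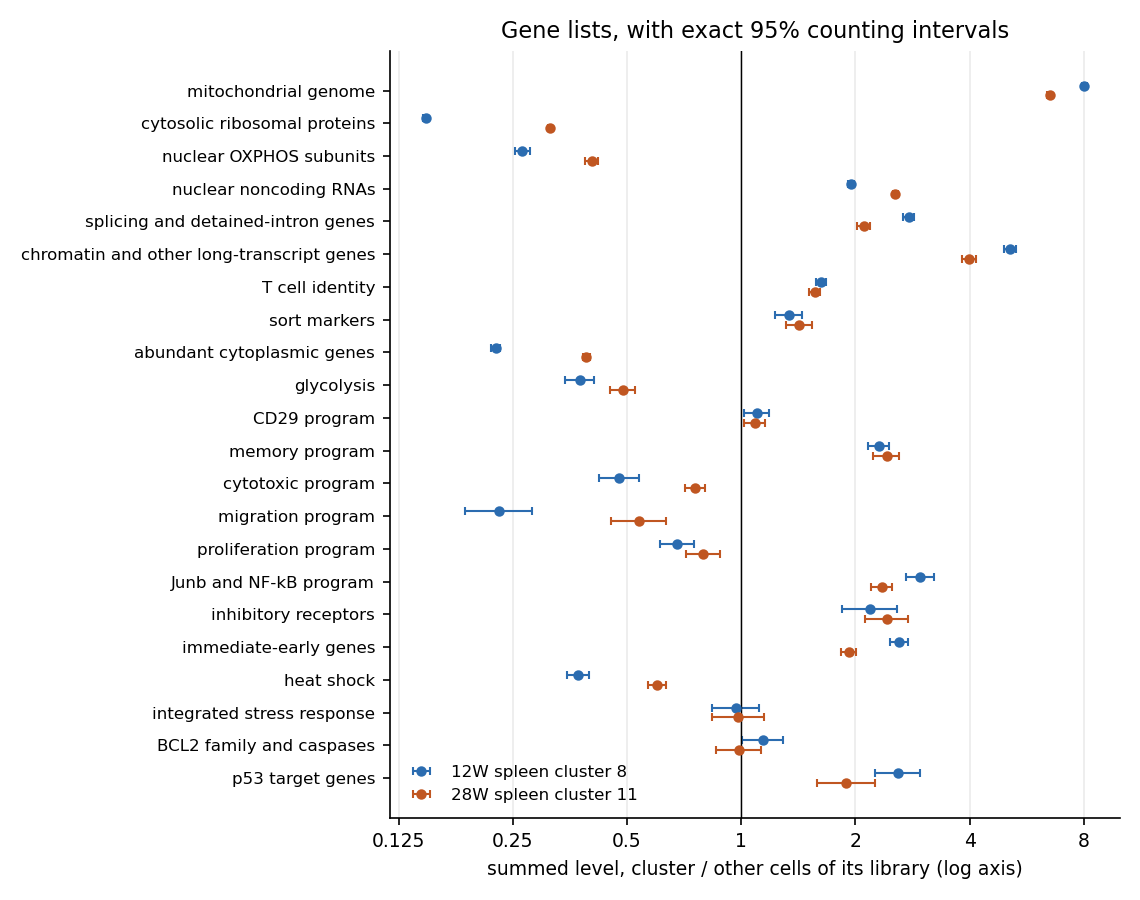
Summed level of each gene list in the cluster divided by that in the other cells of its library, on a log axis, for the lists with at least 3 genes above the level filter in both clusters; bars are exact 95% counting intervals. Mitochondrial genes are at 8.03 and 6.51 and ribosomal protein genes at 0.147 and 0.313, and the lists of T cell programs lie between them.

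Markers of other cell types were sparse in cluster 8. It held 0 UMIs of the 6 neutrophil genes and of the 5 platelet genes, 12 UMIs of the 8 erythroid genes, 60 of the 12 myeloid genes and 94 of the 12 B cell genes. *Ms4a1* and *Ebf1*, which mark B cells, were at 0 UMIs in both clusters. In cluster 11 the neutrophil genes gave 28 UMIs, the erythroid genes 10 and the myeloid genes 55. The summed level of each of these 3 lists was below that of the other cells of its library, but those cells include the clusters marked by such genes. In cluster 11 neutrophil genes summed to 101 CPM, against a median of 0.726 CPM over the other 10 clusters and 25739 CPM in cluster 8, and myeloid genes to 199 CPM against a median of 181. B cell genes gave 302 UMIs in cluster 11, or 1091 CPM. This is 1.01-fold the rest (0.899 to 1.13), 4.15-fold the rest without clusters 8 and 10, and above the median of 276 CPM over the other clusters. Most of these UMIs came from *Ighm* (154) and *Igkc* (92). Of 6 B cell genes above the level filter, 2 were at least 2-fold higher than all other cells and 3 lower, with a median log2 ratio of -0.61. In cluster 8 of the 12W spleen B cell genes summed to 330.0 CPM and myeloid genes to 211 CPM, with medians of 259 and 194 CPM over the other clusters. The 8 genes of stroma and endothelium were 4.52-fold and 3.54-fold higher in the 2 clusters, although 5 of the 6 listed in the 12W table and 5 of the 7 in the 28W table were at 0 UMIs, and the only one above the level filter was *Pecam1* (log2 ratios 1.99 and 1.61 in CPM, -0.24 and -0.12 per cell), an adhesion molecule of endothelium and leukocytes. Natural killer cell genes were 1.69-fold (1.34 to 2.11) and 1.44-fold (1.10 to 1.85) the rest in CPM. Their median log2 ratios were 0.53 and 0.54, not above the 0.76 and 0.54 over all genes. Those medians rest on 1 and 2 genes above the level filter. Per cell the natural killer list was lower, with 0.261 UMIs against 0.868 in cluster 8 and 0.284 against 0.775 in cluster 11. The part of any other cell type in the results was not tested.

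Immunoglobulin transcripts set cluster 11 apart from cluster 8. Immunoglobulin genes and *Jchain*, which encodes the joining chain of secreted IgM and IgA, gave 4217 UMIs in cluster 11, 1.52% of its UMIs (1.48 to 1.57%), against 0.208% in the other cells of the 28W spleen. In cluster 8 they gave 60 UMIs, 0.0211% (0.0161 to 0.0271%), against 0.178% in the other 12W cells. In cluster 11 most came from a few V segments, *Igkv6-15* with 1888 UMIs, *Iglv1* with 1486 and *Ighv2-9* with 187. Cluster 11 held 50.3% of all *Igkv6-15* UMIs of the library, 60.1% of *Iglv1* and 46.2% of *Ighv2-9*. *Igkv6-15* stood at 6818 CPM there and at 2642 CPM in cluster 10, the B cell-marked cluster, and its median over the other 10 clusters was 0.944 CPM. Per cell the gap to cluster 10 was smaller, with 8.78 *Igkv6-15* UMIs against 7.40 and 6.91 *Iglv1* UMIs against 3.74. *Jchain* was at 1004 CPM in cluster 11 and 5519 CPM in cluster 10. *Ighm* had 154 UMIs and *Igkc* 92, 2.90-fold (2.46 to 3.41) and 3.14-fold (2.52 to 3.86) the rest. Set against the other clusters with equal weight, *Jchain* (log2 ratio -0.065) and *Igkc* (-0.46) were not above the mean. Whether these UMIs came from few or many cells was not tested, since the tables hold sums over cells.

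T cell receptor V segments were varied in both clusters. Cluster 8 held 763 UMIs of *Trbv* genes from 22 segments, led by *Trbv13-2* at 27.3% (24.1 to 30.6%), against 21.1% in the rest and 17.4 to 24.2% over the other clusters. Cluster 11 held 729 UMIs from 21 segments, led by *Trbv13-1* at 34.0% (30.6 to 37.6%), against 21.8% in the rest and 8.57 to 27.0% over the other clusters. *Trbv13-2* took 13.2% there. Among *Trav* genes the most used was *Trav3-3* in both, at 6.96% of 690 UMIs and 8.43% of 427 UMIs, with 10.3 and 9.97% in the rest. Several UMIs can come from 1 cell, so these intervals are too narrow for cells.

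The cluster most like them outside the spleen was cluster 2 of the 28W kidney. Its 806 cells had 1200 UMIs per cell, a mitochondrial share of 10.8% and a ribosomal protein share of 7.89%. Pearson's r of its log2 ratios was 0.81 with cluster 8 (2507 genes) and 0.80 with cluster 11 (2545 genes), and the next cluster of another library reached 0.61 and 0.57. *Malat1* was at 19221 CPM in it and *Gm26917* at 2010 CPM, near the levels of the spleen clusters, whereas *Kcnq1ot1* was at 83.7 CPM. It differed from both in other measures. *Gm42418* stood at 113165 CPM. Plasma cell genes were 18.5-fold higher than in the other kidney cells (18.2 to 18.9), against 0.449 in cluster 8 and 4.03 in cluster 11. Of 17 T cell identity genes 7 were at least 2-fold lower, against none in either spleen cluster. Lower genes were common in kidney cluster 2. Outside the mitochondrial and ribosomal families they made up 69.9% at up to 1 kb, 33.4% at 2 to 3 kb and 3.19% above 6 kb of transcript length. The 7 of 17 is therefore not read as a result about T cell genes. These values come from separate libraries, and the differences were not tested.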

How the data were processed

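PD-1+CD44+CD8+ T cells were sorted, captured with the 10x Genomics Chromium system and quantified by the authors with Cell Ranger (version 2.1.1 per the labels, with R 3.6.1; build GRCm38). The deposited tables give, for each gene and cluster, a mean count per cell scaled by the authors' size factors, a log2 fold change and an adjusted p-value; the last pair holds the authors' own comparison and was not used. A second table assigns each barcode to a cluster. Doublet removal and the strand setting are not given in the sources used here. For the 28W spleen the titles were followed, since the age label gives 12 weeks.

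Mean counts were turned back into UMIs by dividing out the scaling; 100% of values came out whole within 0.001. Libraries held 34742303 UMIs (12W spleen), 32023473 (28W spleen) and 29937384 (28W kidney). A single UMI is worth 3.51 CPM in 12W cluster 8 and 3.61 CPM in 28W cluster 11, and 0 UMIs allow up to 3 counts. No deposited column was left unmapped.

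Each cluster was compared with the summed other cells of its library as log2 of (CPM + 10), for genes with a mean level of at least 50 CPM; at least 2-fold counts as higher or lower. Poisson, binomial and conditional binomial intervals are exact (95%) and cover counting error only. With 1 library per group no test was run. The calculation was tested on simulated data. Genes named are members of the lists and, per cluster, the 12 highest and 12 lowest ratios, with mitochondrial, ribosomal protein, T cell receptor and immunoglobulin genes apart. A gene that the rule would name is not reported here. Genes higher per cell and single immunoglobulin segments were named after their values were seen. The clusters and lists were chosen with earlier results of these data known. Gene models were those of GENCODE (GRCm38), which matched all 3670 and 3280 genes above the filter. Python 3.11.15, numpy 2.4.6, pandas 2.3.3 and scipy 1.17.1 were used.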

Additional observations from a re-analysis of the deposited data

Results flagged for a closer look

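Plasma cell genes stood on opposite sides of the other cells in the 2 clusters, and the sides depend on which cells are compared. Their summed level was 0.449-fold the other cells in cluster 8 of the 12W spleen (counting interval 0.303 to 0.642, from 30 UMIs) and 4.03-fold in cluster 11 of the 28W spleen (3.59 to 4.51, from 310 UMIs). In cluster 8 the level was 105 CPM, above the median of 37.5 CPM over the other clusters, with 3008 CPM in cluster 3 alone. In cluster 11 it was 1119.6 CPM, against a median of 49.4 CPM and 7670.3 CPM in cluster 10. *Jchain* made up 278 of the 310, and its log2 ratio turned to 1.64 in cluster 8 without cluster 3 and to -0.065 in cluster 11 with the other clusters weighted equally. *Sdc1* was at 0 UMIs in both clusters, *Mzb1* had 0 and 4 UMIs, and *Prdm1* had 1 and 6. With 1 library at each age the difference was not tested.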

How the results depend on the processing

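No paired analysis was possible because each table pools the samples of its group and has no column for a single sample. For the same reason no sample could be left out. Gene counts were recomputed under 14 alternatives. Of 90 recomputed counts and shares 55 kept their size and 35 moved. A pseudocount of 50 CPM left 690 higher and 265 lower genes in 28W cluster 11, and 617 and 237 shared by both clusters. A level filter of 20 CPM gave 2726 higher genes in 12W cluster 8, 2067 in 28W cluster 11 and 1752 in both, a filter of 100 CPM 827, 556 and 491, and no filter 3160, 2426 and 1954. Scaling without mitochondrial, ribosomal protein and T cell receptor genes gave 651 lower genes in cluster 11 and 590 in both. Scaling to the median gene gave 887 higher and 1007 lower genes in cluster 8, 637 and 724 in cluster 11, and 514 and 671 in both. Per cell the counts were 16 and 2129, 15 and 1759, and 7 and 1640. A 1.5-fold threshold gave 696 lower genes in cluster 11 and 625 in both. The mitochondrial share without ribosomal protein and T cell receptor genes in the denominator was 9.498% and 7.48%, UMIs per cell without mitochondrial genes were 844 and 1202, and the leading *Trav* segment took 6.96% and 8.43%.

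Per cell, these directions reversed in 12W cluster 8 (median log2 ratio, then fold of the summed level): splicing genes -0.49 and 0.490, chromatin genes -0.14 and 0.907, memory genes -1.30 and 0.409, Junb and NF-kB genes -0.47 and 0.525, immediate-early genes -1.02 and 0.461, p53 targets -0.58 and 0.459, the CD29 list -0.94 (median) and inhibitory receptors 0.388 (fold). In 28W cluster 11 they were splicing genes -0.56 and 0.534, memory genes -0.63 and 0.614, Junb and NF-kB genes -0.071 and 0.597, inhibitory receptors -0.50 and 0.617, p53 targets -0.31 (median) and nuclear noncoding RNAs 0.648 (fold). Some summed lists less than 2-fold higher in CPM also held fewer UMIs per cell than the rest. In cluster 8 these included T cell identity (14.6 against 50.6), nuclear noncoding RNAs (34.0 against 98.7) and the ISG list (0.593 against 2.05). In cluster 11 they included T cell identity (18.4 against 46.4) and immediate-early genes (9.03 against 18.5). Single genes that reversed per cell in cluster 8 were *Ctla4* (-0.031), *Cd44* (-0.35), *Top2a* (-0.43), *Satb1* (-0.71), *Neat1* (-0.41), *Pecam1* (-0.24) and *Cd5* (-1.04), and in cluster 11 *Ctla4* (-0.089), *Cd44* (-0.27), *Jun* (-0.47), *Igkc* (-0.30), *Itgb1* (-0.048), *Top2a* (-0.21), *Gzmk* (-0.24), *Ighm* (-0.41), *AY036118* (-0.83), *Satb1* (-0.15), *Pecam1* (-0.12) and *Cd5* (-0.29). Without clusters marked by erythroid or B cell genes, the erythroid list (0.84, 1.36-fold), *Jchain* (1.64), *Hbb-bt* (1.14), *Hbb-bs* (0.84) and *Hba-a1* (0.16) reversed in cluster 8, and *Hbb-bs* (0.037) and *Cd74* (0.91) in cluster 11. With the other clusters weighted equally, *Jchain* (-0.065) and *Igkc* (-0.46) reversed in cluster 11. Against the 3 other clusters with the fewest UMIs per cell, *Stmn1* (0.61) reversed in cluster 8 and *Jchain* (-1.90), *Igkc* (-2.51) and *Ighm* (-0.99) in cluster 11. The causes were not tested. Genes with few UMIs are limited by the depth of 284846 and 276894 UMIs in the 2 clusters.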
